A study of Mus musculus with 12 samples.

Results

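Antibody variable (V) segment genes were chosen as all genes that the deposited count table gives the biotype IG_V_gene, which were 218 of 54532 genes. By name, 113 were heavy chain segments (Ighv), 100 were kappa light chain segments (Igkv) and 3 were lambda light chain segments (Iglv). The other 2, Gm43218 and Gm42543, lie among the kappa segments and held 4 reads in all. RNA-Seq gave 12 libraries of colon from male wild-type C57BL/6J mice that entered the study at 5 weeks of age, in 4 groups of 3 libraries. Control mice were untreated. Model mice were given dextran sodium sulfate (DSS), a sulfated polysaccharide used to induce colitis, and the other groups were given DSS with rhynchophylline (Rhy) or DSS with the glucocorticoid dexamethasone (DXM), at 4 mg/kg in the study. The study used Rhy at 2, 4 and 8 mg/kg, and the dose of the sequenced Rhy mice is not given in the sources used here. DSS was thus common to the model, Rhy and DXM groups, and each library is numbered within its group.

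Each developing B cell joins 1 V segment to a joining (J) segment, with a D segment between them in the heavy chain, and the joined exon is transcribed with the constant region of that chain. The V segment encodes most of the domain that binds antigen. Plasma cells, the antibody-secreting descendants of B cells, transcribe their rearranged heavy and light chain genes at a very high level, and in the gut wall most of them make IgA. A clone of plasma cells shares the same V segments, so the spread of reads over segments describes how evenly the segments are used in a piece of tissue. In bulk tissue, fewer cells of a type and less RNA per cell cannot be told apart.

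On GRCm38, the heavy segments spanned chr12:113578504-116000461, all on the minus strand, the kappa segments chr6:67555497-70704177 with 38 on the plus and 62 on the minus strand, and the lambda segments chr16:19085017-19260859, all on the minus strand. The coordinates of all 218 genes are the same in the GENCODE M21 annotation, which gives a coding sequence for each. The 6 heavy and 6 kappa segments with the largest mean share of the reads of their locus are shown by the germline 3′ end of that coding sequence, because the joining of segments takes place beyond the conserved cysteine. Capitals mark the codon of this cysteine, and each segment has 2 exons, the first for most of the signal peptide. Igkv12-41 and Ighv3-4 are added because results below turn on them.
Ighv1-39: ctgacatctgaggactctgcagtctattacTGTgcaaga
Ighv3-6: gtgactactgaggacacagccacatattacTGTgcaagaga
Ighv7-3: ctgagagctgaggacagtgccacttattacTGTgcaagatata
Ighv2-9: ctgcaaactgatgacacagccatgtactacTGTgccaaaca
Ighv2-2: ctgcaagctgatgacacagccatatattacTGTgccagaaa
Ighv1-81: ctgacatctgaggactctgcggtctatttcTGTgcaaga
Ighv3-4: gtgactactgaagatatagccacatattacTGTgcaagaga
Igkv1-117: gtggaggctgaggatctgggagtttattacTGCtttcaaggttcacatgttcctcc
Igkv10-96: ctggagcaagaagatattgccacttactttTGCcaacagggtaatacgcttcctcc
Igkv1-110: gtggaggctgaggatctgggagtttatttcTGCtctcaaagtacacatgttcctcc
Igkv4-59: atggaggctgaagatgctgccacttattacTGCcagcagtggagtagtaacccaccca
Igkv8-21: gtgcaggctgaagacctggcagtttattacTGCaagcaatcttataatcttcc
Igkv16-104: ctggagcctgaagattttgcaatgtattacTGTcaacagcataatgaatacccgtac
Igkv12-41: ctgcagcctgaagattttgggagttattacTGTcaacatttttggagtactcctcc
The heavy segments end 2 or 3 codons after the cysteine, and the kappa segments 6 to 8 codons after it. Igkv1-117 (chr6:68121046-68121827, plus strand) and Igkv1-110 (chr6:68270485-68271267, plus strand) are 97.2% identical over their coding sequences, with 10 mismatches, and each is the other's nearest copy. Of all segments, 25 of 113 heavy and 18 of 100 kappa segments have a copy in their locus that is at least 97% identical, so the split of reads between such copies is uncertain. Igkv4-59 is 97.4% identical to Igkv4-70 and Igkv6-20 is 98.6% identical to Igkv6-29, whereas the nearest copies of Ighv1-39, Igkv10-96 and Igkv12-41 are 93.2%, 95.4% and 95.7% identical.

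The lambda locus holds only the 3 segments Iglv1, Iglv2 and Iglv3 in this annotation. Iglv1 (chr16:19085017-19085500) and Iglv2 (chr16:19260401-19260859) are shown from the start codon, since they are the closest pair of the locus and Iglv1 led every library. They differ at 11 of 351 coding bases, and capitals mark the differences in the first 300 bases, which hold 8 of them.
Iglv1: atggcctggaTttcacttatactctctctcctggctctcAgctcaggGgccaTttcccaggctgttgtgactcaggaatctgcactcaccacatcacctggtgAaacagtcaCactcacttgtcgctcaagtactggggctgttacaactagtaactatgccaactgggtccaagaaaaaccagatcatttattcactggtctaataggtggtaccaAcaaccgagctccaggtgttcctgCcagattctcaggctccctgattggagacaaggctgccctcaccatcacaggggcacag
Iglv2: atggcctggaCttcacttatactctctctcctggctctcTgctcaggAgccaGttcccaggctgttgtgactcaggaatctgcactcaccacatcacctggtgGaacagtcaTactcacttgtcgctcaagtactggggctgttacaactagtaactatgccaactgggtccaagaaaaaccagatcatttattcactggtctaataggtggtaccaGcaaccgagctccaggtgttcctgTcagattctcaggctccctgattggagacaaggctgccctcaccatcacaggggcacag
The pair is 96.9% identical, and Iglv1 and Iglv3 are 60.8% identical.

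Total counts were 14346478 to 17749716 per library. The labels name colon for all libraries, and the summed level of 10 colon epithelium markers was 12900 to 29900 CPM (counts scaled to 1000000 counted reads). Model 1 and model 2 stood apart as the closest pair of libraries. Over 16106 genes with at least 20 reads in the pair, their chi-square per degree of freedom was 2.85, against 48.6 to 282 in the other 65 pairs. It was above counting noise, which does not show that they are separate animals, and the labels do not name the animals. They were kept as 2 samples, and results that change with their counts summed are given both ways. If they are 1 animal, tests with the model group count it as 2 samples. Control 3 and Rhy 1 stood apart in B cell markers. The summed level of 12 B cell markers was 17.0 CPM in control 3 and 2.72 CPM in Rhy 1, against 152 to 245 CPM in the other 10 libraries. In Rhy 1, 6 of the 12 markers had no read, among them Ms4a1 and Pax5, and in control 3 none was at 0. The summed level of 12 plasma cell markers was 470 to 1390 CPM, lowest in Rhy 1, with none at 0 in any library. In Rhy 1, Sdc1, Xbp1 and Edem1, which epithelial cells also express, gave 250, 100 and 68.5 CPM of that sum. Jchain, Mzb1 and Pou2af1 had their lowest level of the 12 libraries there. Jchain was at 37.3 CPM against 40.4 to 774 CPM in the other libraries. Mzb1 was at 1.05 against 10.6 to 38.5 CPM and Pou2af1 at 0.767 against 6.02 to 28.2 CPM. Prdm1, Irf4, Derl3, Pou2f2 and Edem1 were also lowest there, and Sdc1, Xbp1, Tnfrsf17 and Fkbp11 were not. Tnfrsf17 was at 0.279 CPM in Rhy 1 and 0.0643 CPM in model 2. Fkbp11 was at 5.51 CPM in Rhy 1 and 4.37 CPM in control 2. Rhy 1 was also lowest in the summed level of 8 T cell markers, at 9.48 CPM against 25.2 to 50.6 CPM, and in that of the 13 antibody constant genes, at 209 CPM against 580 to 9680 CPM. Rhy 3 stood apart in small intestine markers, whose summed level was 433 CPM there and 13.6 to 213 CPM elsewhere, with Fabp6, a bile acid carrier of the ileum, at 351 CPM against 2.77 to 18.4 CPM.

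V segments received 36965 reads over the 12 libraries. Kappa segments held 68.7% of them, heavy segments 24.3% and lambda segments 6.94%. At least 1 read fell on 202 of the 218 segments, and 16 had none in any library. Reads in all 12 libraries were found for 25 segments, of which 6 were heavy, 18 kappa and 1 lambda.

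The share of reads on V segments varied widely between libraries of the same group. In the control group it was 226, 68.8 and 429 CPM in libraries 1, 2 and 3. In the model group it was 48.6, 45.7 and 182, and in the Rhy group 14.7, 132 and 276. In the DXM group it was 164, 122 and 529 CPM. The group means were 241 ± 181 (SD, n = 3) in control, 92.2 ± 78.0 in model, 141 ± 131 in Rhy and 272 ± 224 in DXM, and no pair of groups compared was apart. The ratio of geometric means was 0.393 for model against control (exact two-sided permutation test, p = 0.2), 1.10 for Rhy against model (p = 1.0 by the same exact test) and 2.97 for DXM against model (p = 0.3 by the same exact test). With 3 against 3 libraries the smallest p of this test is 0.1. The labels do not name the animals, so these p-values measure the spread between libraries. The 9 DSS libraries together were at 0.583 times control (exact permutation test, p = 0.468), and the 4 groups did not differ beyond the spread between libraries (exact permutation of the F statistic over 15400 arrangements, p = 0.505). Direction was not stable for Rhy against model: the log2 difference of 0.14 was -0.75 without Rhy 3, -0.21 without Rhy 2 and 1.37 without Rhy 1. The part of the small intestine markers of Rhy 3 in this was not tested. Single libraries also moved the size of the other ratios: model against control was 0.238 without control 2, 0.251 without model 3 and 0.594 without control 3, and DXM against model was 1.91 without DXM 3 and 4.66 without model 3. The ratio of the DSS libraries to control was 0.353 without control 2 and 0.88 without control 3.

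**Figure D1:**
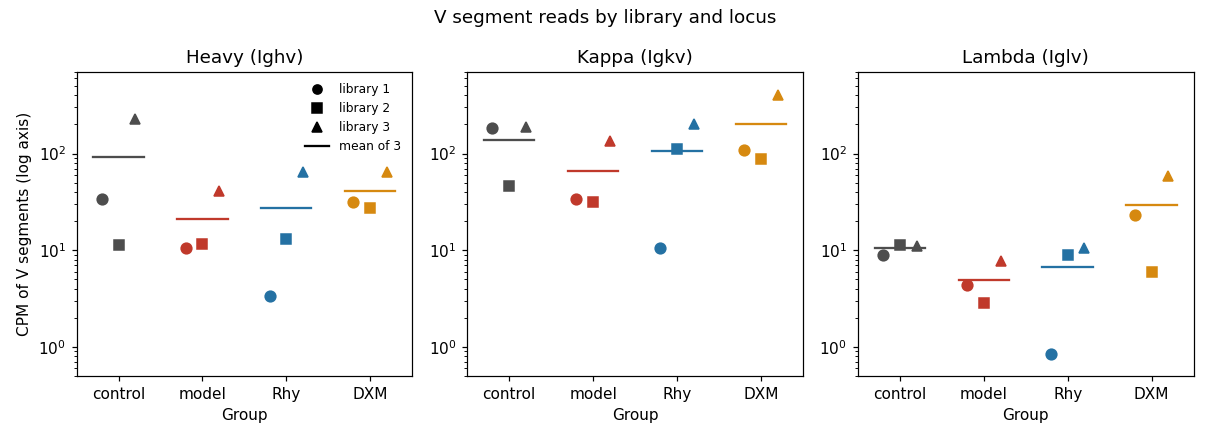
Level of heavy, kappa and lambda V segments in CPM (log axis) in each of the 12 libraries, by group, with the mean of 3 libraries as a line. Rhy 1 is the lowest library in every panel, and the 3 model libraries lie below the 3 control libraries only for lambda.

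The loci were then taken apart. Heavy segments received 33.8, 11.4 and 230 CPM in the control group and 10.4, 11.7 and 41.3 in the model group. In the Rhy group they received 3.35, 13.1 and 64.6, and in the DXM group 31.2, 27.2 and 65.1 CPM. Control 3 was therefore the highest library for heavy segments, at more than any DSS library, and without it the 9 DSS libraries differed from control by 0.10 on the log2 scale in place of -1.09. Kappa segments received 183, 46.1 and 188 CPM in control, 33.8, 31.2 and 133 in model, 10.5, 110 and 201 in Rhy and 110, 88.7 and 405 in DXM. Every pair of groups compared overlapped for heavy and for kappa segments.

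Lambda segments were the 1 locus at which 2 compared groups were apart. The control libraries had 9.0, 11.3 and 11.1 CPM and the model libraries 4.37, 2.83 and 7.63. The model group was at 0.437 times control, with p = 0.1, the smallest that the exact permutation test allows, and an adjusted p of 0.66 over the 11 values tested in this comparison. In the Rhy group the lambda level was 0.836, 8.83 and 10.5 and in the DXM group 23.2, 5.97 and 59.2 CPM, so both groups overlapped the model group. DXM was at 4.43 times the model group (exact permutation test, p = 0.2, adjusted p = 0.471), or 2.59 times without DXM 3 and 8.14 times without DXM 2, and the 2 highest of all 12 libraries were DXM 3 and DXM 1.

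Control 3 also had another make-up of V reads. Heavy segments held 53.7% of its V reads, against 9.91% to 25.6% in the other 11 libraries, and kappa segments held 43.7%, against 66.8% to 83.4%. This library had 3823 heavy, 3115 kappa and 185 lambda reads. Its low B cell markers stand beside this, and their part in it was not tested.

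Reads were set against constant region reads of the same chain, since both come from the same transcripts and the total count drops out. Heavy V reads were 0.592%, 1.64% and 11.9% of the reads on heavy constant genes in control, and 2.86%, 3.07% and 2.78% in model. They were 2.29%, 0.518% and 4.48% in Rhy and 2.02%, 3.02% and 2.34% in DXM. Control 3 was thus the highest of the 12, and it was also highest on the scale of FPKM (counts per gene length and library size), where the V sum was 87.2% of the constant sum against 3.68% to 31.9% in the other libraries. Kappa V reads were 4.74% to 21.2% of Igkc reads, lowest in control 1 and highest in Rhy 3. Lambda V reads were 7.95% to 43.0% of Iglc reads, lowest in control 1 and highest in control 3. For all 3 loci and all 3 pairs of groups the values overlapped, with p from 0.2 to 0.9 in exact permutation tests. The direction of the heavy ratio for model against control rested on single libraries: the log2 difference was 0.36 with all libraries, -0.61 without control 1 and 1.56 without control 3. The kappa ratio of the 9 DSS libraries to control was 0.58 on the log2 scale (exact permutation test, p = 0.177) and 1.06 without control 3, where the exact permutation p was 0.0364 before adjustment.

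**Figure D2:**
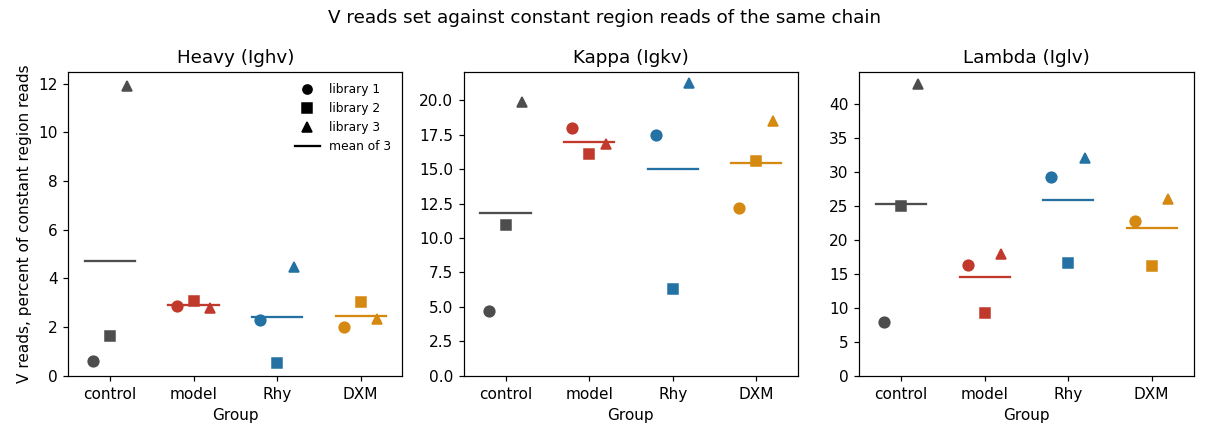
V segment reads as a percent of the constant region reads of the same chain in each library, by group, for heavy, kappa and lambda, with the mean of 3 libraries as a line. Control 3 is the highest library for heavy, at 11.9%, and for lambda, at 43.0%.

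Across 11 samples, with model 1 and model 2 summed, the V level in CPM went with the constant region level on log2 scales. For kappa, Pearson's r was 0.907 (permutation p = 0.00054, adjusted over 3 relations 0.00162) and Spearman's rho 0.855 (permutation p = 0.00148, adjusted 0.00444), and r was 0.679 without the 2 samples farthest from the median. For heavy, r was 0.678 (permutation p = 0.0233, adjusted 0.0233) and rho 0.673 (permutation p = 0.0282, adjusted 0.0423), and r fell to 0.251 without Rhy 1 and the summed model 1 and model 2, so the heavy relation rests on those samples. For lambda, r was 0.907 (permutation p = 0.00168, adjusted 0.00252) and rho 0.618 (permutation p = 0.0487, adjusted 0.0487), and r was 0.525 without Rhy 1 and DXM 3. Both levels of a sample share its total count.

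The isotype of the constant reads gives the setting of these V reads. Igha, the constant gene of IgA, held 45.3% to 98.9% of heavy constant reads and was the largest in every library. Ighm, the constant gene of IgM, held 32.7% and 34.0% in model 1 and model 2, against 0.661% to 10.3% in the other libraries. Igkc, the kappa constant gene, held 86.4% to 97.3% of light chain constant reads. Of the 13 constant genes, 11 could be tested by edgeR and 0 passed an adjusted p under 0.05 in each of the 3 comparisons. At an unadjusted p under 0.05, 1 passed in each, or 9.09% of the 11, where 9.62%, 3.72% and 7.69% of all genes passed. Igha was lower in model than in control (log2 fold change -2.47, SE 1.10, edgeR unadjusted p = 0.0449, adjusted p = 0.516). Ighg2c was lower in Rhy than in model (-3.28, SE 1.34, edgeR unadjusted p = 0.0313, adjusted p = 1.00). Iglc1 was higher in DXM than in model (2.52, SE 0.94, edgeR unadjusted p = 0.0204, adjusted p = 0.637). Jchain, which links IgA into dimers, had a log2 fold change of -1.61 in model against control (SE 0.94), with an unadjusted p of 0.113 by edgeR. With DESeq2 and with limma on log2(FPKM + 1), 0 constant genes passed the adjusted threshold (DESeq2 gave an adjusted p to 7 of 13 in model against control). Of 13 and 11 tested, 2 and 1 passed unadjusted in model against control, 0 and 0 in Rhy against model and 1 and 0 in DXM against model. Of all genes, these tools passed 6.6% and 9.38%, 3.05% and 3.73%, and 5.53% and 7.94% unadjusted.

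The leading heavy segment differed between libraries of the same group. Over the mean of the 12 libraries, 14 segments made up 50% of heavy reads, 35 held over 1% each and 35 held under 0.1%. Ighv2-9 and Ighv3-6 led 3 libraries each, Ighv1-39 and Ighv7-3 led 2 each, and Ighv1-54 and Ighv6-6 led 1 each. The leaders held 6.51% to 25.5% of the heavy reads of their library.

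Ighv1-39 (chr12:114914599-114915032) had the largest mean share, from a pair of libraries of different groups. It held 25.5% of heavy reads in control 1 (95% Wilson interval 22.0% to 29.4%, 135 of 529 reads) and 22.9% in Rhy 3 (20.4% to 25.5%, 241 of 1054 reads). In the other control libraries it held 5.85% and 1.36%, in model 3.39%, 1.65% and 4.41%, in the other Rhy libraries 2.08% and 0%, and in DXM 0.199%, 5.18% and 0.271%. The 0 of 208 reads in Rhy 2 allow a share of up to 1.44%. These intervals and limits cover counting error only. Ighv1-39 was thus high in 1 library of 3 in each of the control and Rhy groups and low in the rest.

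Ighv2-9 (chr12:113879096-113879541) was the leader in Rhy 2 with 13.0%, DXM 1 with 15.9% and DXM 3 with 13.6% of heavy reads. It held 2.84%, 2.66% and 0.837% in control, 1.13%, 3.30% and 3.52% in model, 3.52% in DXM 2 and 3.13% in Rhy 3. In Rhy 1 it had 0 of 48 reads, which allows up to 6.25%. Ighv3-6 (chr12:114288152-114288582) was more even. Its share was 2.27%, 1.60% and 6.51% in control, 3.95%, 2.20% and 11.01% in model, 14.6%, 5.77% and 4.08% in Rhy, and 4.58%, 7.66% and 5.77% in DXM. Ighv7-3 (chr12:114153180-114153644) led model 1 with 9.60% and model 2 with 12.6%, the pair of near-identical libraries, and held 10.8% in DXM 3. Ighv2-2 held 0.441% to 12.7% and was highest in DXM 1, and Ighv1-81 held 0.271% to 7.05% and was highest in model 3. Ighv6-6 led Rhy 1 on 9 of 48 reads (18.8%, 95% Wilson interval 10.2% to 31.9%) and Ighv1-54 led control 2 on 19 of 188 reads (10.1%, 6.57% to 15.2%).

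**Figure D3:**
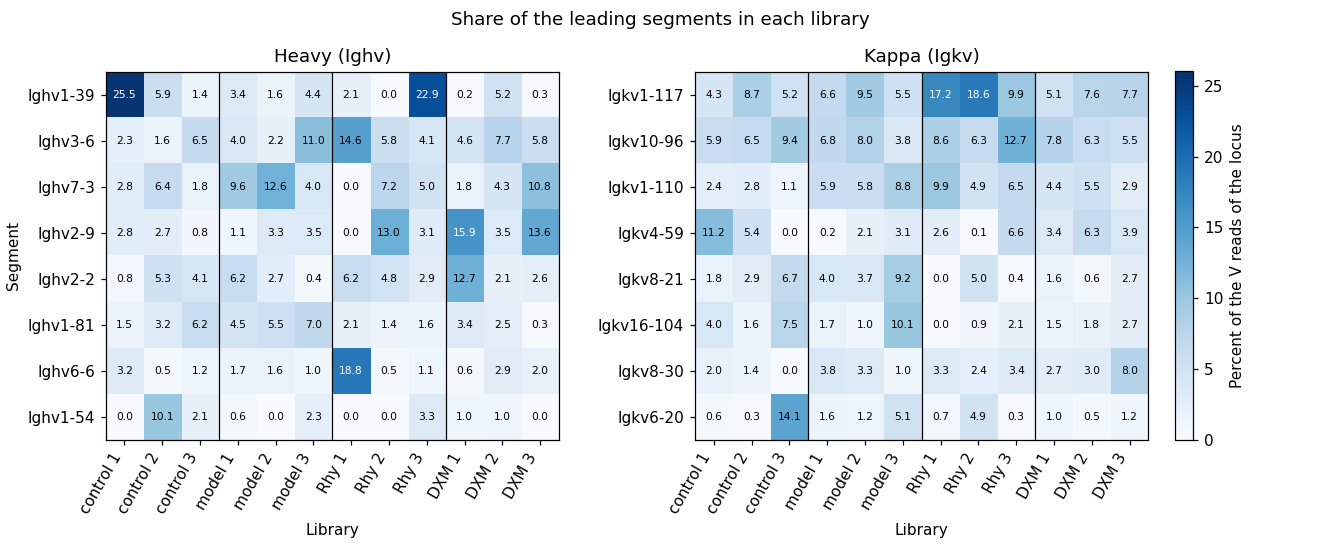
Percent of the V reads of its locus held by the 6 segments with the largest mean share and by every other segment that led a library, heavy (left) and kappa (right), in each of the 12 libraries. Ighv1-39 stands out in control 1 and Rhy 3, Igkv6-20 in control 3, and Igkv1-117 in Rhy 1 and Rhy 2.

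By family, the 53 Ighv1 segments held 19.0% to 62.9% of heavy reads, with the highest shares in control 3, Rhy 3 and control 1 and the lowest in DXM 3. The 9 Ighv2 segments held 6.25% to 31.1% and the 6 Ighv3 segments 6.04% to 22.6%, both families including DXM 1 and DXM 3 among their 3 highest libraries. The 57 heavy segments nearest to the J segments held 49.0%, 59.6% and 38.9% of heavy reads in control, 66.7%, 63.2% and 61.8% in model, 72.9%, 75.5% and 41.7% in Rhy and 72.9%, 57.8% and 81.8% in DXM. These segments thus held over 50% in 9 of the 12 libraries and in each model and DXM library. For kappa, the 50 segments nearest to the J segments held 37.1% to 61.2%, with each Rhy library under 50% (37.1%, 45.9% and 37.9%) and libraries on both sides of 50% in the other groups. These positions were not tested.

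In the kappa locus, again 14 segments made up 50% of reads over the mean of the libraries. Igkv1-117 led 5 libraries, 1 or 2 in each group, and Igkv10-96 led 3. Igkv4-59 led control 1, Igkv6-20 control 3, Igkv16-104 model 3 and Igkv8-30 DXM 3. The leaders held 6.81% to 18.6% of kappa reads.

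Igkv1-117 had reads in all 12 libraries. It held 4.30%, 8.70% and 5.23% of kappa reads in control, 6.63%, 9.48% and 5.45% in model, 17.2%, 18.6% and 9.93% in Rhy and 5.11%, 7.56% and 7.66% in DXM. The 3 Rhy libraries were the 3 highest, and the other groups overlapped each other. The gap was narrowest between Rhy 3, at 9.93%, and model 2, at 9.48% (Wilson interval 7.19% to 12.4%, 46 of 485 reads). That interval included the Rhy 3 value, so counting error could reverse that order for Igkv1-117. On the level scale, its log2 fold change for Rhy against model was 1.81 (SE 0.81, edgeR unadjusted p = 0.0463, adjusted p = 1.00), and for DXM against model 1.68 (SE 0.81, edgeR unadjusted p = 0.0595, adjusted p = 0.657). Igkv10-96 (chr6:68631963-68632442) held 3.82% to 12.7% and was highest in Rhy 3. The log2 fold change of its level was 1.76 for Rhy against model (SE 0.89, edgeR unadjusted p = 0.0726). Igkv1-110, the near copy of Igkv1-117, held 1.09% to 9.93%, highest in Rhy 1.

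A set of kappa segments had no read in control 3. Of the 61 kappa segments for which at least 10 reads would be found there at their share in the other libraries, 19 had 0 reads in control 3, against 0 to 2 in each of the other libraries. Only 2 segments met this expectation in Rhy 1, 12 in model 2, 15 in model 1 and 24 in control 2. Shallow libraries could thus show few such zeros, whereas DXM 3 had 2 among 74 and Rhy 3 had 2 among 63. The 19 segments at 0 in control 3 held 26.1% of kappa reads in the other libraries. They included Igkv4-59 (chr6:69438218-69438757), which held 11.2% in control 1, 5.40% in control 2 and 0.114% to 6.64% in the 9 DSS libraries, and Igkv8-30, which held 0.9995% to 7.96% in the other 11. With 3115 kappa reads in control 3, a count of 0 allows a share of up to 0.0963%. The Igkv4 family of 26 segments held 5.87% there and 8.11% to 39.1% in the other libraries. In the same library Igkv6-20 held 14.1% (12.9% to 15.4%, 440 of 3115 reads), against 0.264% to 5.13% in the other libraries, and Igkv16-104 held 7.51%, next to 10.1% in model 3 and 0% to 3.98% in the other 10. For heavy segments, 9 of 36 such segments were at 0 in DXM 3, and 0 to 3 in each of the other libraries. Rhy 1 had 0 such heavy segments, model 2 had 2, model 1 and Rhy 2 had 3 each and control 2 had 4, whereas control 3 had 63. The 9 held 16.6% of heavy reads elsewhere.

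Iglv1 led the lambda reads of every library. It held 79.4%, 86.0% and 94.1% in control, 82.4%, 68.2% and 82.5% in model, 100%, 85.7% and 88.9% in Rhy and 96.8%, 70.8% and 87.3% in DXM. The 100% in Rhy 1 rests on 12 reads (95% Wilson interval 75.8% to 100%). Iglv3 held 0% to 20.5%, highest in model 2, DXM 2 and model 1, and Iglv2 held 0% to 11.4%, with 0.268% in DXM 1. The Rhy libraries were above the model libraries in the share of Iglv1 and below them in that of Iglv3, which was not tested, and the other pairs of groups overlapped for each lambda segment.

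Diversity was measured as the effective number of segments, the exponential of the Shannon entropy, which is the number of equally used segments that would give the same entropy. For heavy segments it was 28.6, 30.9 and 42.0 in control, 33.2, 35.5 and 40.1 in model, 11.4, 24.8 and 30.2 in Rhy and 27.8, 46.2 and 26.7 in DXM. For kappa segments it was 37.6, 38.4 and 24.4 in control, 42.4, 44.3 and 35.7 in model, 23.0, 34.0 and 33.8 in Rhy and 41.8, 46.9 and 46.3 in DXM. In both loci the 3 Rhy libraries were below the 3 model libraries. The Rhy group was at 0.566 times the model group for heavy and 0.733 times for kappa segments, each with p = 0.1, the smallest that the exact permutation test allows, and an adjusted p of 0.275 over 11 values. The share of the leading segment was higher in the 3 Rhy libraries than in the 3 model libraries. It was at 1.61 times for heavy and 1.84 times for kappa (exact permutation test, p = 0.1 each, adjusted p = 0.275). For heavy, the gap was narrowest between Rhy 2, at 13.0% (Wilson interval 9.08% to 18.2%), and model 2, at 12.6% (8.57% to 18.2%). These intervals overlapped, so counting error could reverse that order. Rhy 1 rested on 9 of 48 reads (10.2% to 31.9%), and only Rhy 3 (20.4% to 25.5%) lay above the model 2 interval. The leading share was not compared at equal read numbers. Thus 4 of the 11 values compared between Rhy and model had groups apart, and these 4 describe the same heavy and kappa profiles.

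Depth moved with this comparison. Rhy 1 had 48 heavy and 151 kappa reads, the fewest of all libraries. Thinned to 48 heavy reads, the effective number was 22.6, 23.2 and 22.4 in model and 11.4, 17.8 and 17.4 in Rhy. Thinned to 151 kappa reads, it was 36.0, 36.6 and 28.4 in model and 23.0, 27.1 and 26.5 in Rhy, so the groups remained apart at equal depth in both loci. Without Rhy 1 the log2 difference was -0.40 in place of -0.82 for heavy, and -0.26 in place of -0.45 for kappa, where the exact permutation p was then 0.2. With model 1 and model 2 summed it was -0.94 for heavy and -0.47 for kappa, each with an exact permutation p of 0.2. Rhy 1 was also lowest in B cell, T cell and constant gene reads, and the part of lymphoid cell number in the difference was not tested.

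**Figure D4:**
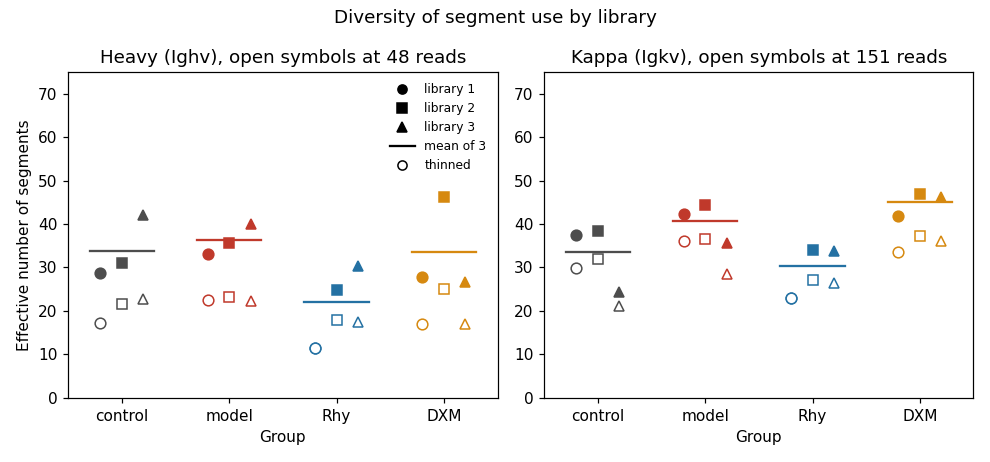
Effective number of heavy and kappa segments in each library, by group, at full depth (filled, with the mean of 3 as a line) and thinned to the lowest depth (open). The 3 Rhy libraries lie below the 3 model libraries in both panels at both depths.

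Model against control and DXM against model overlapped in the effective number and in the leading share, for heavy and for kappa (exact permutation p of 0.3 to 0.9). Over all 4 groups, the share of the leading kappa segment had the smallest p, 0.0110 by exact permutation of the F statistic, with an adjusted p of 0.121 over 11 values. Its group means were 11.3% ± 2.72 (SD, n = 3) in control, 8.79% ± 1.75 in model, 16.2% ± 3.07 in Rhy and 7.77% ± 0.203 in DXM. The kappa effective number gave p = 0.0863 (exact permutation) over the 4 groups, which was 0.0119 without control 3. The heavy effective number gave p = 0.167 (exact permutation), which was 0.0366 without Rhy 3.

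Likeness of segment use was measured by the Bray-Curtis dissimilarity of within-locus shares, which runs from 0 for the same shares to 1 for no shared segment. For heavy segments its mean was 0.559 within groups and 0.570 between groups (exact permutation over 15400 arrangements, p = 0.294). For kappa segments it was 0.413 within and 0.438 between groups (exact permutation, p = 0.0419). With model 1 and model 2 summed the kappa values were 0.423 and 0.441 (exact permutation, p = 0.176), so the call rests on the near-identical pair. Model 1 and model 2 had a heavy dissimilarity of 0.326, the lowest of 66 pairs, whose other 65 values were 0.350 to 0.857. Their heavy reads differed by little more than counting noise, with a chi-square per degree of freedom of 1.09 against 2.01 to 28.2 in the other pairs. Their kappa dissimilarity was 0.285, next to 0.283 to 0.677 in the other pairs. Their kappa chi-square per degree of freedom was 2.10, next to 1.42 to 42.9, so by neither measure were they the closest kappa pair. The 1.42 was that of model 2 and Rhy 1, which had 151 kappa reads. Leaving this pair out, the median heavy dissimilarity was 0.558 for the 11 pairs of the same group and 0.552 for the 54 pairs of different groups. The kappa medians were 0.438 and 0.407, the opposite order to the kappa means with that pair summed (0.423 within and 0.441 between groups). The order thus depended on the measure, and the medians were not tested.

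Single segments were compared by edgeR on the whole table, in which 90 of the 218 segments passed the filter on low counts (27 heavy, 60 kappa and 3 lambda). In model against control, 0 of the 90 passed an adjusted p under 0.05, as did 0% of all 16904 genes tested. At an unadjusted p under 0.05, 14 segments passed, 13 lower in the model group and 1 higher, where 9.62% of all genes passed (4.51% lower and 5.11% higher). Of the 90, 81 had a lower and 9 a higher fitted level in the model group, and the median log2 fold change was -1.36 against 0.01 over all genes. By locus the median was -2.13 for heavy, -1.26 for kappa and -1.16 for lambda. The summed heavy level rested on control 3: its ratio of model to control was 0.384 with all libraries and 0.873 without control 3. For kappa the ratio was 0.446 and 0.567, and for lambda 0.437 and 0.451. The 14 of 90 (15.6%) became 9 of 101 (8.91%) without control 3, where 16.2% of all genes passed, and 30 of 115 (26.1%) without control 2, where 6.3% did. They became 25 of 113 (22.1%, against 7.97% of all genes) without model 3, 8 of 116 (6.9%, against 5.12%) without model 1 and 7 of 116 (6.03%, against 5.19%) without model 2. The median over the members tested was -0.91 without control 3 and -2.45 without model 3. DESeq2 gave no member an adjusted p in this comparison and 28 of 202 (13.9%) passed unadjusted, where 6.6% of all genes did. With limma on log2(FPKM + 1), 0 passed adjusted and 7 of 90 (7.78%) unadjusted, where 9.38% of all genes did.

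The 3 segments with the smallest unadjusted p in model against control did not pass the adjusted threshold. Igkv12-41 (chr6:69858420-69858884) was at 0.575, 0.547 and 0.904 CPM in control and at 0.118, 0.257 and 0.182 CPM in model, with a log2 fold change of -1.96 (SE 0.54, edgeR unadjusted p = 0.00366, adjusted p = 0.459). The groups were apart, on 2 to 4 reads in each model library. Ighv3-4 (chr12:114253617-114254051) had 0 reads in all 3 control libraries, control 3 with its 3823 heavy reads included. It had 9, 4 and 31 reads in model, 0, 4 and 0 in Rhy and 34, 5 and 85 in DXM. Against a floor of 3 reads over the control group, its level was at least 14.6-fold higher in the model group, or 6.5-fold without model 3 (edgeR unadjusted p = 0.00874, adjusted p = 0.462). Ighv14-3 was at 0.575, 0.729 and 7.35 CPM in control and 0.0590, 0.257 and 0.667 CPM in model, where the groups overlapped (log2 fold change -3.10, SE 1.10, edgeR unadjusted p = 0.0155, adjusted p = 0.479).

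**Figure D5:**
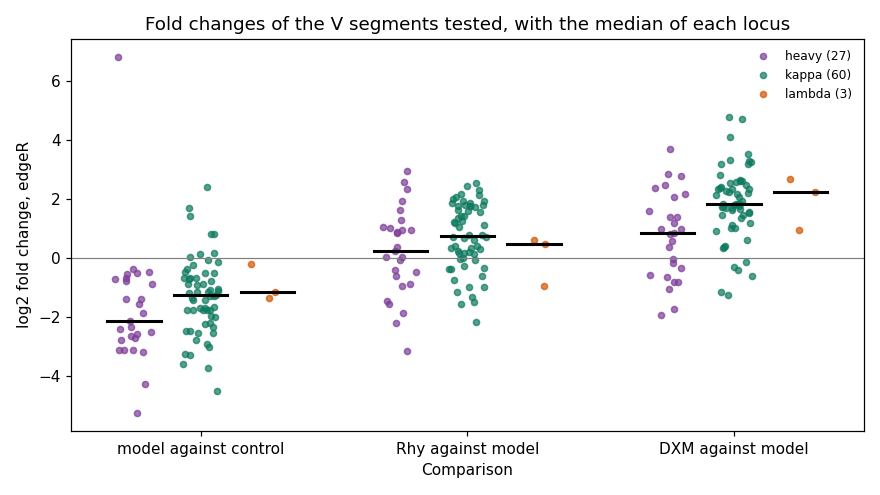
edgeR log2 fold changes of the 90 V segments that passed the filter, by comparison and locus (points), with the median of each locus (black bar). Medians are below 0 for model against control and above 0 for both drug comparisons (over all segments, -0.32 for Rhy without Rhy 3), and 0 of the 90 passed an adjusted p under 0.05 in any of the 3. The topmost point of model against control is Ighv3-4, whose control reads were 0.

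In Rhy against model, 0 of the 90 passed the adjusted threshold by edgeR, as did 0% of all genes, and 1 passed unadjusted where 3.72% of all genes did (1.74% higher and 1.98% lower). That segment was Igkv1-117, described above. The median log2 fold change was 0.66 with 62 segments higher and 28 lower, and it was -0.32 without Rhy 3 and 1.14 without Rhy 1, so no direction held. By locus it was 0.24 for heavy, 0.75 for kappa and 0.47 for lambda. The next segments by p were Ighv3-4, lower in Rhy (edgeR unadjusted p = 0.0501), and Igkv10-96. The unadjusted count was 8 of 116 (6.9%, against 6.13% of all genes) without Rhy 1 and 4 of 113 (3.54%, against 5.79%) without model 3. It was 3 of 116 (2.59%, against 1.69%) without model 2, 3 of 113 (2.65%, against 3.51%) without Rhy 2 and 2 of 116 (1.72%, against 1.67%) without model 1. DESeq2 passed 0 adjusted and 7 of 202 (3.47%, against 3.05% of all genes) unadjusted, and limma on log2(FPKM + 1) 0 and 0.

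In DXM against model, 0 of the 90 passed the adjusted threshold by edgeR, as did 0% of all genes. At an unadjusted p under 0.05, 14 passed, all higher in DXM, where 7.69% of all genes passed (4.89% higher and 2.8% lower). They were 2 heavy, 11 kappa and 1 lambda segments. The median log2 fold change was 1.71 against -0.01 over all genes, with 74 segments higher and 16 lower. By locus the median was 0.87 for heavy, 1.83 for kappa and 2.26 for lambda. The count rested on DXM 3, the library with the most V reads: it was 3 of 107 (2.8%) without DXM 3, with a median of 0.83, where 3.11% of all genes passed. It was 27 of 114 (23.7%, against 9.2% of all genes) without DXM 2, 25 of 113 (22.1%, against 5.23%) without model 3, 9 of 116 (7.76%, against 4.47%) without model 1 and 8 of 116 (6.9%, against 4.44%) without model 2. Smooth muscle markers moved with this comparison. Their summed level was 6680, 5700 and 10200 CPM in DXM and 4900, 4810 and 3580 CPM in model, with the groups apart, and 6 of 6 had a higher fitted level in DXM (median log2 fold change 0.68), of which 2 passed edgeR's unadjusted and 0 its adjusted threshold. Of 10 colon epithelium markers, 9 had a lower fitted level in DXM (median -0.29), with 2 passing unadjusted and 0 adjusted by edgeR. The part of tissue make-up in the V levels was not tested.

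Igkv12-41 again had the smallest p. It was at 2.36, 1.18 and 2.29 CPM in DXM, on 38, 21 and 39 reads, against 2, 4 and 3 reads in the model libraries and 3 reads in each Rhy library. The DXM libraries were above all other libraries, including control, and the log2 fold change was 3.34 (SE 0.54, edgeR unadjusted p = 4.87e-05, adjusted p = 0.622). It was the 1 segment that passed an adjusted p under 0.05 in DESeq2 (adjusted p = 0.00909) and in limma on log2(FPKM + 0.1) (adjusted p = 0.0421). DESeq2 passed 52 of all 29984 genes (0.173%) adjusted, and unadjusted it passed 30 of 202 segments (14.9%) and 5.53% of all genes. Limma on log2(FPKM + 0.1) passed 2 of all 16904 genes adjusted, and 7 of 90 segments (7.78%) and 7.44% of all genes unadjusted. With limma on log2(FPKM + 1), 0 passed adjusted and 14 of 90 (15.6%) unadjusted, where 7.94% of all genes did. Igkv4-68 was at 0.373, 0.958 and 6.87 CPM in DXM and 0, 0.129 and 0.121 CPM in model (log2 fold change 4.80, SE 1.45, edgeR unadjusted p = 0.00628, adjusted p = 0.622). Igkv8-27 was at 1.80, 0.789 and 21.1 CPM in DXM and 0.0590, 0.386 and 0.364 CPM in model (4.72, SE 1.47, edgeR unadjusted p = 0.00763, adjusted p = 0.622). For both segments the DXM libraries were above the model libraries and DXM 3 was the highest of all. Iglv1 had a log2 fold change of 2.68 (SE 0.85, edgeR unadjusted p = 0.00833, adjusted p = 0.622).

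The cell type lists stand beside these levels. For the 12 B cell markers, 0 passed edgeR's adjusted and 0 its unadjusted threshold in each of the 3 comparisons. Their median log2 fold change was 0.26 in model against control, -1.02 in Rhy against model and 0.11 in DXM against model, with the summed level at 17.0 to 239 CPM in control, 175 to 245 in model, 2.72 to 167 in Rhy and 221 to 236 in DXM. For the 12 plasma cell markers, 0 passed adjusted in each comparison and 3 passed unadjusted in model against control, all lower in the model group, where 9.62% of all genes passed (4.51% lower): Prdm1 and Tnfrsf17, a regulator and a receptor of plasma cells, and Edem1, of protein quality control. Their log2 fold changes were -1.29 (SE 0.37), -2.76 (SE 0.92) and -0.48 (SE 0.20). Prdm1 did not follow Jchain within the control group. It was at 9.0, 21.3 and 11.9 CPM there, highest in control 2, where Jchain was lowest of the 3 control libraries. The medians of the list were -0.52, -0.03 and 0.10 in the 3 comparisons, and the summed level was 647 to 1320 CPM in control, 593 to 947 in model, 470 to 1000 in Rhy and 589 to 1390 in DXM. Sdc1, Xbp1 and Edem1, which epithelial cells also express, gave 231, 155 and 104 of the 593 CPM in model 2. Jchain was at 487, 160 and 477 CPM in control and 40.4, 43.0 and 316 CPM in model. Of the 12 markers, 8 had a lower and 4 a higher fitted level in model than in control. DESeq2 and limma on log2(FPKM + 1) also passed 0 markers of either list at the adjusted threshold, where DESeq2 gave an adjusted p to 6 of 12 markers of each list in model against control. At the unadjusted threshold they passed 4 plasma cell markers each in model against control, where DESeq2 passed 6.6% and limma 9.38% of all genes. DESeq2 passed 1 in DXM against model, where it passed 5.53% of all genes, and 0 markers passed in the other list and comparisons. The part of plasma cell number in the V levels was not tested.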

How the data were processed

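Total RNA of mouse colon was sequenced in 12 libraries. Per the submitters' processing notes in the labels, reads were processed with HISAT2 2.0.5, featureCounts 1.5.0-p3 and DESeq2 1.16.1 on mm10. The counts deposited by the authors are whole reads per gene without normalization, and FPKM, also deposited by the authors as counts per gene length and library size, entered alternatives only. The handling of strand, of reads with several hits and of reads across V to J joins or with somatic mutations is not given in the sources used here, so overlapping genes and near-identical segments are uncertain.

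Members, gene lists and tests were chosen with earlier results of these data known. V reads were summed per library and locus, giving 48 to 3823 heavy, 151 to 6897 kappa and 12 to 1008 lambda reads, which limit the precision. CPM is the count scaled to a total of 1000000. Shares, effective numbers, leading shares and ratios were compared on log2 scales by exact two-sided permutation over libraries, with Benjamini-Hochberg adjustment over the 11 values of a comparison. Single genes were tested by edgeR 4.0.16 (TMM, filterByExpr at a minimum count of 10, glmQLFit and glmQLFTest, all 12 libraries in 1 fit) in R 4.3.3, adjusted over 16904 genes. The standard error is the log2 fold change over the square root of F. The methods read here name no test for the RNA-Seq and do not include the DXM group. Named segments were the 6 of largest mean share in the heavy and kappa loci, the Iglv segments, the leaders, and per comparison the 3 of smallest unadjusted p, since none passed. In a simulation of model against control with 200 of the genes changed 4-fold, edgeR recovered 110, with 9 false calls among 16558 genes tested. DESeq2 1.42.0, limma 3.58.1 and Python 3.11.15 with scipy 1.17.1 served for the alternatives and exact tests, which are given in the closing section. Sequences and identities came from GENCODE M21 coding sequences (GRCm38), aligned with Biopython 1.88. Thinning used 200 draws. Marker lists were B cell, plasma cell, T cell, germinal center, colon epithelium, small intestine, smooth muscle and pancreas.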

Additional observations from a re-analysis of the deposited data

How the results depend on the processing

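Of 234 values recomputed under alternatives other than leaving out a library, 209 were scored as the same. These kept their direction and their side of the threshold, or stayed within 1.5 times for counts. For exact tests between pairs of groups, the smallest possible p lay above the threshold. Their side of it was thus fixed in advance, and only their direction could change. The log2 difference of Rhy against model turned with model 1 and model 2 summed, to -0.19 for all V reads and -0.097 for kappa, and turned for lambda to 0.051 with TMM library sizes and 0.073 with FPKM sums. With that pair summed, the V to constant ratio of the DSS libraries against control turned to -0.017 for heavy and 0.022 for lambda, and the p of kappa likeness rose to 0.176. The inverse Simpson index brought the p of kappa diversity over 4 groups to 0.0162.

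Counts of segments at an unadjusted p under 0.05 moved most. For model against control, DXM against model and Rhy against model, 14, 14 and 1 of 90 segments passed in the main fit. When genes with any count were tested, they were 48, 45 and 10 of 202 (23.8%, 22.3% and 4.95%). Of all genes, 6.72%, 5.86% and 3.24% then passed. By DESeq2 they were 28, 30 and 7 of 202 (13.9%, 14.9% and 3.47%), where 6.6%, 5.53% and 3.05% of all genes passed. For model against control the count was 5 of 48 (10.4%, against 9.92% of all genes) with the 2 groups alone. It was 9 of 116 (7.76%, against 4.99%) with model 1 and model 2 summed. By limma on log2(FPKM + 1) and on log2(FPKM + 0.1) it was 7 of 90 (7.78%), against 9.38% and 9.12% of all genes. For DXM against model the count was 24 of 60 (40.0%, against 15.4% of all genes) with the 2 groups alone. It was 7 of 90 (7.78%, against 7.44%) by limma on log2(FPKM + 0.1) and 9 of 116 (7.76%, against 4.24%) with that pair summed. For Rhy against model it was 0 of 90 (against 3.73% of all genes) by limma on log2(FPKM + 1). With the pair summed it was 3 of 116 (2.59%, against 1.63%). At an adjusted p under 0.05, DXM against model gave 1 by DESeq2 and 1 by limma on log2(FPKM + 0.1), both Igkv12-41. DESeq2 gave no member an adjusted p for model against control. With model 1 and model 2 summed, edgeR's smallest adjusted p of a member was 0.887 in place of 0.459 for model against control. For DXM against model it was 0.932 in place of 0.622. The cause of these moves was not tested, beyond the larger number of segments where genes with any count were kept.

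Leaving out each library in turn gave these log2 ranges where a direction turned. For the share in Rhy against model they were -0.75 to 1.37 for all V reads, -1.37 to 0.76 for heavy, -0.61 to 1.52 for kappa and -0.74 to 1.08 for lambda. For the DSS libraries against control they were -2.07 to 0.096 for the heavy share, -0.0037 to 0.32 for kappa diversity, -0.28 to 0.70 for the heavy and -0.30 to 0.053 for the kappa leading share, and -0.94 to 1.23 for the heavy and -0.75 to 0.47 for the lambda ratio to constant reads. The heavy leading share ranged from -0.54 to 0.44 in model against control and -0.11 to 0.42 in DXM against model. Ratios ranged for heavy from -0.61 to 1.56 in model against control and -1.41 to 0.14 in Rhy against model, and for kappa from -0.69 to 0.18 in Rhy against model and -0.30 to 0.0019 in DXM against model. The kappa ratio of the DSS libraries to control ranged from 0.030 to 1.06. The p over 4 groups ranged from 0.0366 to 0.564 for heavy and 0.0119 to 0.145 for kappa diversity. Unadjusted counts ranged from 7 of 116 (6.03%, against 5.19% of all genes) to 30 of 115 (26.1%, against 6.3%) in model against control. In Rhy against model they ranged from 1 of 105 (0.952%, against 3.75%) to 8 of 116 (6.9%, against 6.13%). In DXM against model they ranged from 3 of 107 (2.8%, against 3.11%) to 27 of 114 (23.7%, against 9.2%).

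Replicate numbers did not pair the libraries: over 18 pairs of the same number, deviations from group means correlated at -0.31 to 0.363, with 6 above 0.1. With a replicate block, edgeR passed 0 members adjusted in each comparison. In model against control, Rhy against model and DXM against model it passed 10, 1 and 14 of 90 unadjusted (11.1%, 1.11% and 15.6%). Of all genes, 10.8%, 3.7% and 7.36% passed. No call on shares or diversity changed. The exact sign-flip permutation test of 3 pairs cannot go below p = 0.25. Depth limits the heavy values of Rhy 1 (48 reads) and the lambda values of Rhy 1 (12 reads) most.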

Other observations

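Reads outside the V genes were few. V pseudogenes of the immunoglobulin loci, 155 genes, received 0 to 85 reads per library, lowest in Rhy 1 and highest in DXM 3, and J segments received 0 to 76 reads, with the same lowest and highest libraries. The 144 V segment genes of the T cell receptor received 3 to 84 reads per library, or 0.209 to 4.93 CPM, again lowest in Rhy 1 and highest in DXM 3. Model 3, with 72 such reads on 29 segments, and DXM 3, with 84 on 39, spread over the most T cell receptor segments.

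The other marker lists gave these values. For 8 T cell markers, edgeR passed 0 at an adjusted p under 0.05 in each comparison and at most 2 unadjusted, Cd3e and Lck, both lower in Rhy than in model, with medians of -0.12, -0.76 and -0.06 in the 3 comparisons. For 5 germinal center markers, the medians were 0.88, -1.49 and -1.52, with S1pr2 passing unadjusted in model against control and Gcsam in Rhy against model, and 0 passing adjusted. DESeq2 and limma on log2(FPKM + 1) also passed 0 of both lists adjusted, where DESeq2 gave none of these markers an adjusted p in model against control. Unadjusted, DESeq2 and limma each passed 2 T cell markers in Rhy against model and 0 in the other comparisons. They passed 2 and 2 germinal center markers in model against control, 2 and 3 in Rhy against model and 1 and 3 in DXM against model. Of all genes, edgeR passed 9.62% unadjusted in model against control, 3.72% in Rhy against model and 7.69% in DXM against model. DESeq2 and limma passed 6.6% and 9.38%, 3.05% and 3.73%, and 5.53% and 7.94% of all genes unadjusted in these comparisons. The summed level of 5 small intestine markers was highest in Rhy 3, which also had 7.97 CPM of Apoa4 and 3.19 CPM of Defa24, against 0 to 0.547 CPM and 0 to 0.0602 CPM in the other libraries. Smooth muscle markers summed to 3010 to 10200 CPM, highest in DXM 3, which had the lowest colon epithelium sum. Of 4 pancreas markers, Cela1 gave 56.8 to 333 CPM, highest in DXM 3, while Cpa1, Prss2 and Pnlip had 0 or 1 read in each library.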
